A study of Rattus norvegicus with 6 samples.

Results

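Hypoxia response and glycolysis genes were followed in the bulk RNA-seq of 6 rat mammary tumors. The genes were taken by symbol from a list of 41, which holds glycolytic enzymes, glucose and lactate transporters, other targets of the hypoxia-inducible factors (HIFs) and the HIF subunits with their oxygen sensors. Of these, 40 had a row in the count table of 30562 rows, and all 40 had enough counts to be compared. Expression of Gapdh was not analysed here. The theme was proposed after lower Car9 and lower hypoxia gene levels had been seen in the older tumors of this same data set. The differences between age groups below are therefore descriptions and support nothing on their own. The same holds for the counts of these genes that passed a test.

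The tumors came from F344 rats, an inbred strain used in aging and carcinogenesis work, with 3 tumors from older rats (102, 107 and 116) and 3 from younger rats (157, 158 and 167). All rats of both groups carried a subcutaneous 50 mg pellet of medroxyprogesterone acetate (MPA, a progestin) made for 90 days of release, and all received 7,12-dimethylbenz[a]anthracene (DMBA, a carcinogen that is activated in the mammary gland) once by gavage at 65 mg/kg. DMBA was given at 21 to 23 months of age in the older group and at 4 months in the younger group. The older rats came from an aging colony and the younger ones from a commercial breeder, so supplier and age cannot be told apart. Each tumor was flash frozen and gave 1 library, the younger tumors being all that arose in that group and the older ones those with enough tissue. In such bulk tissue, fewer cells of a type and less RNA per cell cannot be told apart.

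Cells short of oxygen stabilize the alpha subunits of HIF, which otherwise are hydroxylated by prolyl hydroxylases of the Egln family and degraded. The stabilized factor pairs with Arnt, binds a short DNA element near its targets and raises genes for glucose uptake, glycolysis, lactate export, acid handling and matrix modification. Glycolytic enzymes also respond to growth signals and to Myc, so they can move apart from other HIF targets. Solid tumors often hold oxygen-poor areas, and Car9 is a widely used tissue marker of them.

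The DNA element has the core ACGTG or GCGTG, and promoter windows of RefSeq (250 bases before to 50 after the start of transcription, build GRCr8) were searched for both forms on both strands. Windows were found for 37 of the 41 genes, Gapdh included, and 29 of these 37 genes (78.4%) held a core. Pgk1, Ndrg1, Bnip3l and Lox had no window. Among all 27457 genes in the promoter table the share was 44.6%, and among the 10249 genes with a window that were also compared in the tumors it was 62.3%. The form ACGTG stood in 25 of the 37 genes (67.6%), against 20.9% of all genes and 26.3% of the compared ones. Both forms contain CG, and the windows of the hypoxia and glycolysis genes had a median GC content of 64.3%, against 51.7% in all windows and 60.3% in those of compared genes. ACGTG was found in 9 of the 11 other HIF targets with a window and in 4 of 6 transporters and flux regulators. It was found in 10 of 16 glycolytic enzymes, a set with Gapdh and without Pgk1, unlike the enzymes compared in the tumors. Where the letters read CACGTG, an E-box that other factors also bind, the core counts on both strands. This form stood in 6 of the 37 genes (16.2%), against 7.08% of all genes and 9.74% of the compared ones. No core was found in the windows of Hk2, Tpi1, Pkm, Slc16a3, Pfkfb4, Adm, Egln3 and Epas1, which says only that these letters were absent from these windows.

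The following 8 promoters are examples that hold the element, and they were chosen after the values were seen. Genes without a core, such as Hk2, Tpi1 and Pkm, are not among them. Each runs from 150 bases before to 20 after the start, 5′ to 3′ along the gene, in build GRCr8, with every core in capitals (CACGT and CACGC are the cores read on the opposite strand).
Car9 (chr5:62558874-62559043, plus strand): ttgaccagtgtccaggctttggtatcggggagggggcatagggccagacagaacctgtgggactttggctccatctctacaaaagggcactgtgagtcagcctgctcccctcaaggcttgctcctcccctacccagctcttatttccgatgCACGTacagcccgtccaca
Car12 (chr8:76169665-76169834, plus strand): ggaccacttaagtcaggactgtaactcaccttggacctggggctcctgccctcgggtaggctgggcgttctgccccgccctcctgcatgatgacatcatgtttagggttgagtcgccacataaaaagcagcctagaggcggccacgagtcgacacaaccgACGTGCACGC
Slc2a1 (chr5:138002372-138002541, plus strand): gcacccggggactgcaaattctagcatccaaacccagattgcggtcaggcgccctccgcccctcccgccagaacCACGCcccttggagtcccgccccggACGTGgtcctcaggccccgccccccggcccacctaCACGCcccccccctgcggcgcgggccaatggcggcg
Ldha (chr1:106507942-106508111, plus strand): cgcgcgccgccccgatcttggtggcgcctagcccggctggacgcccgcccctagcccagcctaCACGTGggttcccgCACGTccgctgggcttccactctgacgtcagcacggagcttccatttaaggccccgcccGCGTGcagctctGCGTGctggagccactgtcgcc
Pgam1 (chr1:250673002-250673171, plus strand): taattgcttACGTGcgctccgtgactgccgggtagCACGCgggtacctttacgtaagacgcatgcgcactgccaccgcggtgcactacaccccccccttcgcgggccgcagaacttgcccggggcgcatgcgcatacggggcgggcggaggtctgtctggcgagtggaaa
P4ha1 (chr20:27844896-27845065, plus strand): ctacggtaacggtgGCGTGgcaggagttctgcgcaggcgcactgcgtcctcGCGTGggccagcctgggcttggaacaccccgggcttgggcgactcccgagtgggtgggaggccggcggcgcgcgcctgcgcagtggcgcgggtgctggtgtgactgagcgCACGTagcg
Bnip3 (chr1:203154943-203155112, minus strand): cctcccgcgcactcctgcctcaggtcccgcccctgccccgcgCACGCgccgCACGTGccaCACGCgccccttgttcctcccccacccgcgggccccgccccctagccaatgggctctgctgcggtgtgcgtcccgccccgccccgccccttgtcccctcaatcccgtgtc
Ankrd37 (chr16:53001357-53001526, plus strand): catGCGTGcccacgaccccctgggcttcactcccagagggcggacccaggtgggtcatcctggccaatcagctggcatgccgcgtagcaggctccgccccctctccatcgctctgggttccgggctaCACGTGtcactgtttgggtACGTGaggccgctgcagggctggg
In Car9 the only core of the window lay just after the start, and in Ldha 5 core matches lay in the stretch shown, with a CACGTG among them. Ankrd37 and Bnip3 each held a CACGTG with further cores close by.

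**Figure D1:**
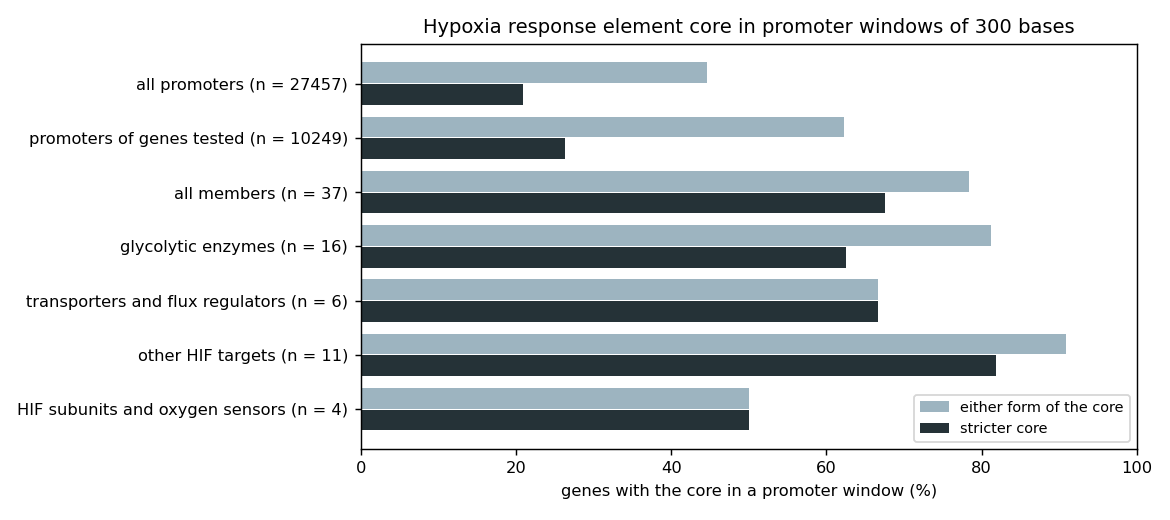
The bars give the percentage of genes with a hypoxia response element core in a 300-base promoter window, for all genes, for compared genes and for the listed genes by role, with either form of the core (light) or ACGTG alone (dark). The stricter form stood in 67.6% of the listed genes and in 20.9% of all genes.

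Reads per gene were compared as CPM (counts of a gene scaled to a common total of counts over named genes, with TMM factors between tumors). The deposited totals ran from 3508571 to 6525830 counts per tumor, and 3 counts corresponded to 0.53 to 1.03 CPM. Fold changes are older against younger from edgeR's quasi-likelihood fit over 13139 genes. At an adjusted p of 0.05 this fit called 0 of the 40 genes and 0 of all genes (0% called). At an unadjusted p under 0.05 it passed 18 of the 40 (8.59% of all genes), and DESeq2 called 11 at an adjusted p of 0.05 (2.28% of all genes). In 15 of the 40 genes every older tumor lay below every younger one (5.58% of all genes), and in 1, Slc16a1, every older tumor lay above (6.51%). The log2 fold change was below 0 in 37 of the 40, with a median of -0.81, against 50.4% of all genes and a median of -0.0039. As the age contrast itself led to the list, nothing is read from these shares.

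**Figure D2:**
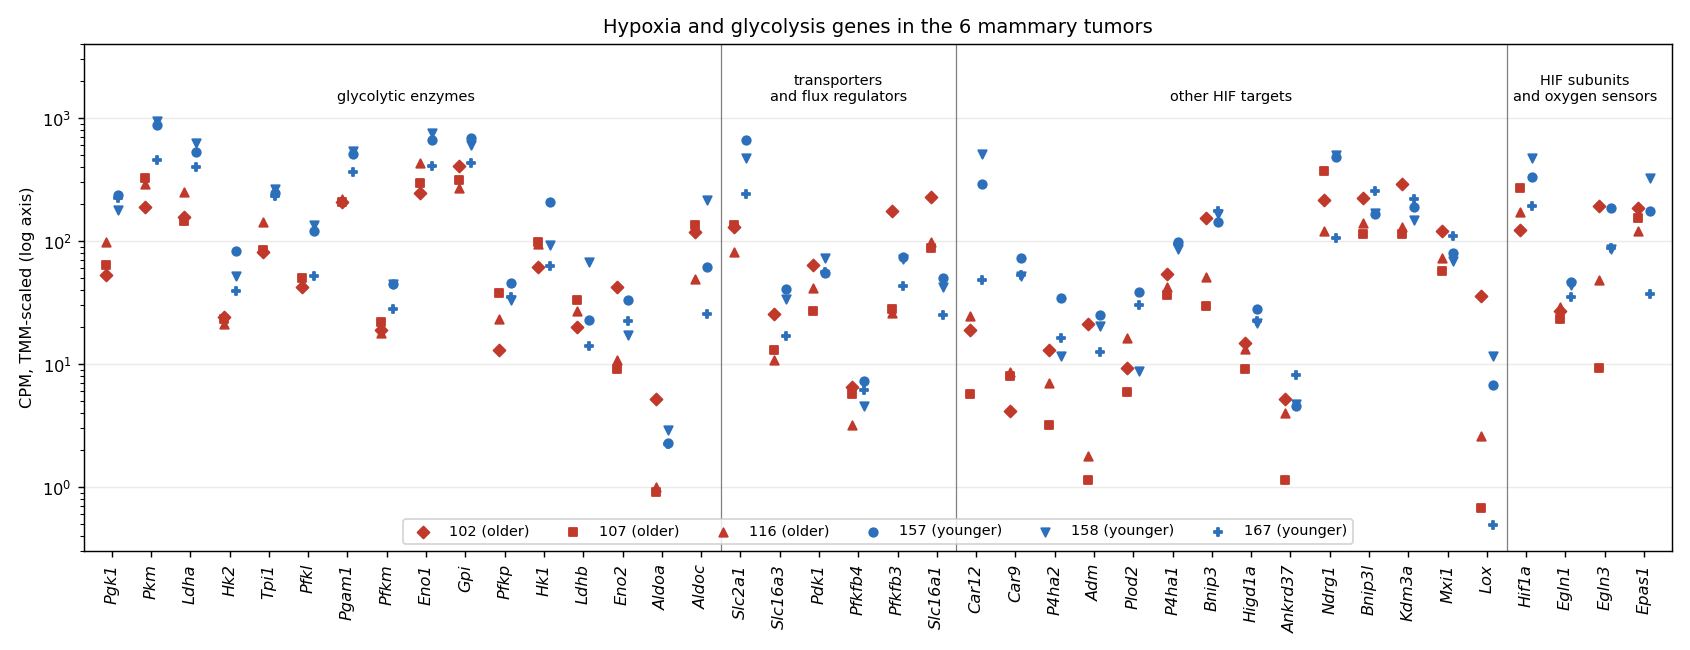
Each point is the level of 1 gene in 1 tumor (CPM, log axis), red for older and blue for younger tumors, with genes grouped by role. The younger tumors lie above the older ones for Car9, Car12, Slc2a1 and 9 of the 16 glycolytic enzymes, while tumor 102 (red diamonds) reaches the younger levels for Adm, Bnip3 and Egln3.

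Glycolytic enzymes split glucose to pyruvate and, through lactate dehydrogenase, to lactate. All 16 that were compared had a log2 fold change below 0, from -1.56 to -0.0032 with a median of -0.96. In 9 of them the age groups did not overlap (12.1% of all genes). The sign of 5 of the other 7 rested on single tumors, since leaving out 1 tumor gave up to 1.22 for Aldoc and 0.55 for Ldhb (without 158), 0.24 for Aldoa and 0.095 for Eno2 (without 107) and 0.12 for Hk1 (without 157). Aldoc also turned to 0.011 when scaled by library totals alone. Hexokinase 2 (Hk2), the inducible enzyme that traps glucose in the cell, was at 24.1, 23.2 and 21.2 CPM in older tumors 102, 107 and 116 and 82.4, 51.6 and 39.2 CPM in younger tumors 157, 158 and 167. The older tumors were close together and each was below the lowest younger tumor, a log2 fold change of -1.34 (standard error 0.32). Pgk1, which makes the first ATP of the pathway, was at 53.0, 63.4 and 99.1 CPM in the older tumors and 237, 178 and 223 CPM in the younger tumors. It had the lowest log2 fold change of the enzymes, -1.56 (standard error 0.30), and a gap between the groups. Pyruvate kinase (Pkm), which makes pyruvate and ATP, was at 188, 325 and 293 CPM in the older tumors and 871, 941 and 460.1 CPM in the younger tumors, with a log2 fold change of -1.50 (standard error 0.38). Lactate dehydrogenase A (Ldha), which turns pyruvate into lactate, was at 158, 145 and 249 CPM in the older tumors and 526, 632 and 397 CPM in the younger tumors. Its log2 fold change was -1.49 (standard error 0.32), and the highest older tumor, 116, stayed below the lowest younger tumor, 167.

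The other enzymes whose groups did not overlap were Tpi1, which interconverts the triose phosphates, Pgam1, which moves the phosphate of phosphoglycerate, Gpi, which makes fructose 6-phosphate, and the phosphofructokinases Pfkl and Pfkm of the committed step. Pgam1 was at 208, 207 and 219 CPM in the older tumors and 506, 542 and 365 CPM in the younger tumors. The 3 older tumors differed little from each other in this gene, and the log2 fold change was -1.16 (standard error 0.26). Tpi1 was at 80.9, 84.8 and 143 CPM in the older tumors and 245, 267 and 234 CPM in the younger tumors, a log2 fold change of -1.27 (standard error 0.29). Log2 fold changes were -1.16 (standard error 0.37) for Pfkl, -0.998 (standard error 0.29) for Pfkm and -0.80 (standard error 0.30) for Gpi. In Pfkl and Gpi the younger tumor 167 came close to the older ones, at 51.6 against at most 50.0 CPM for Pfkl and at 432 against at most 407 CPM for Gpi.

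The remaining 7 enzymes overlapped between the age groups. Enolase 1 (Eno1), the common form of the enzyme before pyruvate kinase, was at 246, 297 and 429.5 CPM in the older tumors and 665, 756 and 411 CPM in the younger tumors, where older tumor 116 lay above younger tumor 167. Aldoc, an aldolase known from brain, was at 118, 136 and 49.1 CPM in the older tumors and 61.2, 216 and 25.7 CPM in the younger tumors, with equal group means and wide spread in both. Log2 fold changes were -0.52 for the constitutive hexokinase Hk1, -0.61 for Pfkp, -0.38 for Ldhb, the heart form of lactate dehydrogenase, and -0.26 for Eno2, an enolase of neurons that HIF also raises. The row of Aldoa, the muscle aldolase that most tissues also use, held only 4 to 16 counts per tumor, so its log2 fold change of -0.15 carries little weight. Several enzymes of this pathway have pseudogene copies in the rat, and reads shared with a copy may be missing from the counts.

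Averaged over the 16 enzymes, the mean log2 CPM was 5.90, 5.91 and 5.89 in older tumors 102, 107 and 116 and 6.97, 7.01 and 6.29 in younger tumors 157, 158 and 167. The older tumors were within 0.02 of each other, while tumor 167 lay below the other younger tumors. The group means were 5.90 ± 0.01 and 6.76 ± 0.41 (SD, n = 3 each), a difference of -0.86, and leaving out Aldoa gave -0.89. Without Aldoa the older tumors lay further apart, at 6.13, 6.28 and 6.25, with a mean of 6.22 ± 0.08 (SD, n = 3).

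**Figure D3:**
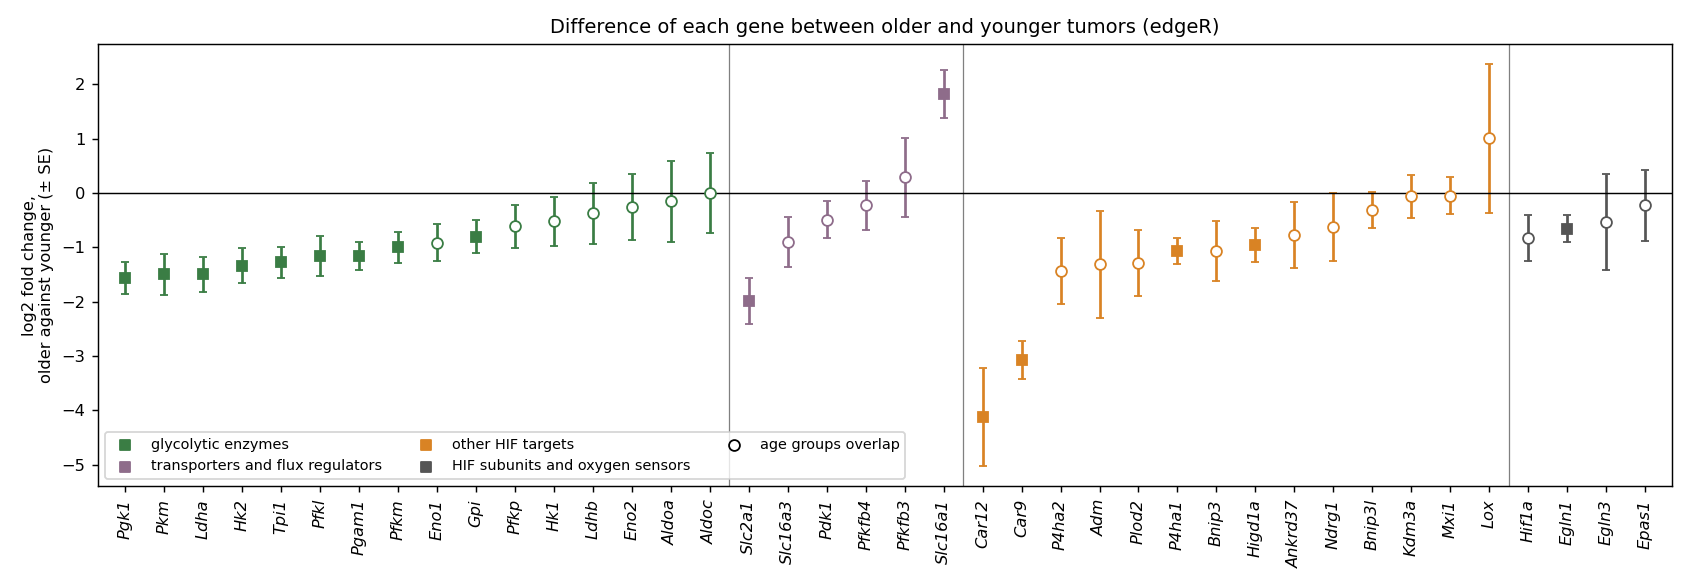
Log2 fold change of each gene in older against younger tumors with its standard error (edgeR), ordered within each role. Filled squares mark genes whose age groups do not overlap and open circles those that do. Car12 at -4.12 and Car9 at -3.08 are lowest and Slc16a1 at 1.82 is highest.

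Among the transporters, Slc2a1 (GLUT1), the main glucose carrier of tumor cells and a HIF target, was at 130.1, 136 and 81.1 CPM in older tumors 102, 107 and 116 and 661, 472 and 240.4 CPM in younger tumors 157, 158 and 167. All older tumors were below all younger ones, and the log2 fold change was -1.99 (standard error 0.42). Slc16a1 (MCT1), a carrier that moves lactate in either direction, went the other way. It was at 229, 87.7 and 98.5 CPM in the older tumors and 49.7, 42.5 and 25.2 CPM in the younger tumors, with the highest value in tumor 102 and a log2 fold change of 1.82 (standard error 0.45). Slc16a3 (MCT4), the lactate exporter that HIF raises, was at 25.5, 12.96 and 10.8 CPM in the older tumors and 40.7, 33.6 and 16.8 CPM in the younger tumors, where tumor 102 overlapped the younger tumors, and its log2 fold change was -0.90 (standard error 0.46).

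The flux regulators overlapped between the groups. Pfkfb3 makes the activator of phosphofructokinase and was at 176, 28.2 and 26.2 CPM in the older tumors and 73.5, 71.1 and 43.2 CPM in the younger tumors. Tumor 102 was the highest of all 6, and the other older tumors were the lowest, so the log2 fold change was 0.28 (standard error 0.72) with all tumors and -1.21 without tumor 102. Pdk1, the kinase that closes entry of pyruvate into mitochondria, was at 63.4, 26.8 and 41.5 CPM in the older tumors and 55.3, 72.9 and 56.3 CPM in the younger tumors, with a log2 fold change of -0.49 (standard error 0.34). Pfkfb4, a further enzyme of the Pfkfb family, was low in every tumor, between 3.20 and 7.25 CPM.

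The 2 carbonic anhydrases of the list sit in the cell membrane and turn carbon dioxide into bicarbonate and acid outside the cell. Car9 was at 4.13, 7.96 and 8.61 CPM in older tumors 102, 107 and 116 and 72.3, 52.1 and 53.1 CPM in younger tumors 157, 158 and 167. The deposited counts behind these values were 12, 35 and 43 in the older and 409, 288 and 215 in the younger tumors. The younger mean was 8.58 times the older mean, with 6.90 ± 2.42 CPM in older and 59.2 ± 11.4 CPM in younger tumors (SD, n = 3 each), and the log2 fold change was -3.08 (standard error 0.35). Tumor 102, which was near the younger tumors for several other HIF targets, had the lowest Car9 of all. Car12, which estrogen receptor signaling also raises in breast tissue, was at 18.9, 5.68 and 24.4 CPM in the older tumors and 292, 514 and 48.4 CPM in the younger tumors. Its log2 fold change of -4.12 (standard error 0.91) was the lowest of the 40 genes, and the younger tumors differed widely among themselves, with tumor 167 far below tumors 157 and 158.

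The other 12 HIF targets were less uniform between the age groups. P4ha1, a prolyl hydroxylase of collagen, was at 54.0, 36.6 and 42.5 CPM in the older tumors and 98.5, 86.5 and 94.8 CPM in the younger tumors, a log2 fold change of -1.07 (standard error 0.24). Higd1a, a mitochondrial protein that supports respiration in low oxygen, was at 14.8, 9.09 and 13.2 CPM in the older tumors and 28.3, 21.7 and 22.2 CPM in the younger tumors, a log2 fold change of -0.96 (standard error 0.31). In both genes the groups did not overlap and both groups were narrow.

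For the rest the groups overlapped, in several genes through tumor 102. Adm, which encodes the vasodilator peptide adrenomedullin, was at 21.4, 1.14 and 1.80 CPM in the older tumors and 25.1, 20.4 and 12.6 CPM in the younger tumors. Tumor 102 stood among the younger tumors while 107 and 116, with 5 and 9 counts, were far lower. Bnip3, a mitophagy receptor, was at 153, 29.6 and 50.7 CPM in the older tumors and 144, 166 and 176 CPM in the younger tumors, and again tumor 102 was at the younger level. The log2 fold changes were -1.31 (standard error 0.99) for Adm and -1.06 (standard error 0.55) for Bnip3. Without tumor 102 they were -3.70 and -2.01, and without tumor 107 they were -0.79 and -0.68. Without tumor 116 that of Adm was -0.83.

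Lox, which cross-links collagen, was at 35.8, 0.682 and 2.60 CPM in the older tumors and 6.72, 11.6 and 0.494 CPM in the younger tumors. It was highest in tumor 102, and its counts of 3 in tumor 107 and 2 in tumor 167 were at or below 3 counts. Its log2 fold change was 1.005 (standard error 1.37) with all tumors and -1.93 without tumor 102. The collagen modifiers P4ha2 and Plod2 had log2 fold changes of -1.44 (standard error 0.61) and -1.29 (standard error 0.60), with younger tumor 157 highest in both. Ndrg1, a stress-responsive gene of differentiated epithelium, was at 215, 369 and 121 CPM in the older tumors and 483, 499.5 and 107 CPM in the younger tumors, where younger tumor 167 was the lowest of all 6. Ankrd37, a small HIF target, had 5 to 33 counts per tumor and a log2 fold change of -0.77 (standard error 0.61). The histone demethylase Kdm3a, the Myc antagonist Mxi1 and the mitophagy receptor Bnip3l had log2 fold changes of -0.06, -0.05 and -0.31. For Kdm3a and Mxi1 tumor 102 was the highest of the 6.

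Over the 14 other HIF targets, carbonic anhydrases included, the median log2 fold change was -1.01. In 4 of the 14 the groups did not overlap (12.1% of all genes). Their mean log2 CPM was 5.23, 3.79 and 4.42 in older tumors 102, 107 and 116 and 5.96, 5.71 and 5.35 in younger tumors 157, 158 and 167. Tumor 102 fell just below the lowest younger tumor, whereas 107 and 116 were well below. The difference between group means was -1.19, against -0.86 for the glycolytic enzymes. The difference of these differences was -0.34. The HIF target mean minus the enzyme mean was -0.67, -2.12 and -1.47 in the older tumors and -1.01, -1.31 and -0.94 in the younger tumors, so that the groups overlapped. Without tumor 107 the difference of differences was 0.012, and without tumor 102 it was -0.71. Without Car9 and Car12 the other HIF targets differed by -0.82 and the difference of differences was 0.034. The groups of the HIF target mean then overlapped, with older tumor 102 at 5.56 and younger tumors 158 and 167 at 5.43 and 5.30.

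**Figure D4:**
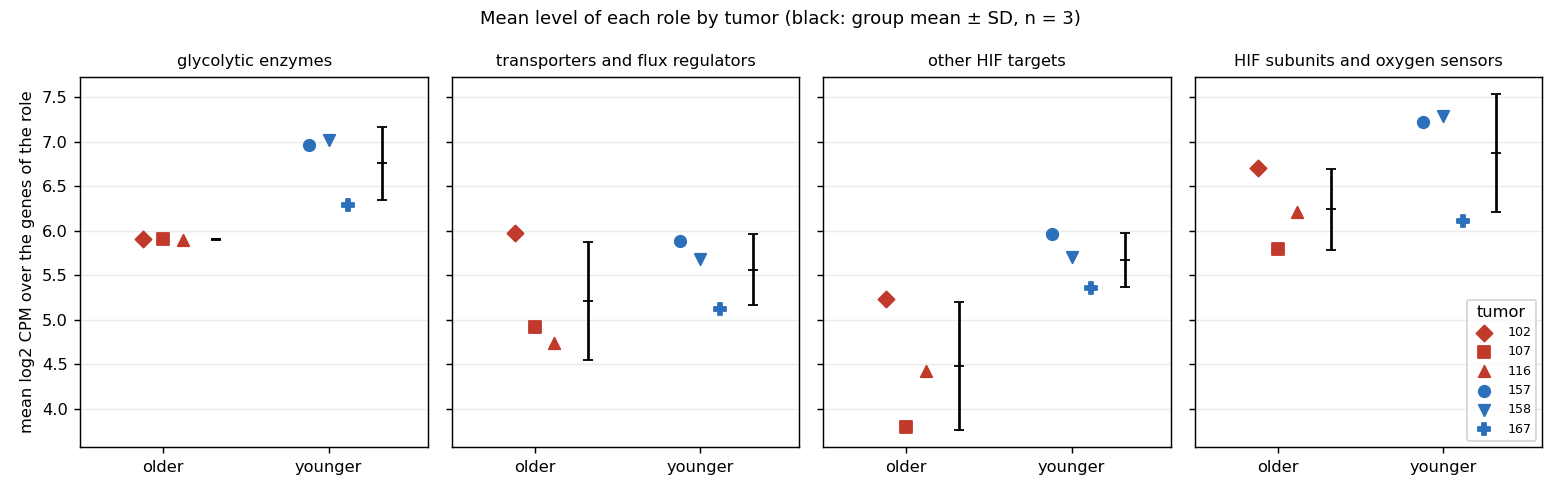
Mean log2 CPM over the genes of each role in each tumor, with the group mean and SD in black (n = 3). The older tumors are at 5.90 ± 0.01 for glycolytic enzymes (6.22 ± 0.08 without Aldoa). They spread over 4.48 ± 0.72 for other HIF targets, where tumor 102 is the highest of them.

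The HIF subunits and oxygen sensors had log2 fold changes below 0 in 4 of 4 genes with all tumors, while without tumor 158 that of Epas1 was 0.53. Hif1a, the oxygen-regulated subunit found in most cells, was at 122, 269 and 174 CPM in the older tumors and 331, 475 and 193 CPM in the younger tumors, with a log2 fold change of -0.82 (standard error 0.42) and tumor 102 the lowest of the 6. Epas1 (HIF-2 alpha), the subunit prominent in endothelium, was at 185, 154 and 121 CPM in the older tumors and 176, 325 and 37.3 CPM in the younger tumors, lowest in younger tumor 167. Egln1, the main oxygen sensor, was the only gene of this role whose groups did not overlap, at 27.2, 23.2 and 28.8 CPM in the older tumors and 46.1, 43.6 and 35.0 CPM in the younger tumors, and its log2 fold change was -0.66 (standard error 0.25). Egln3, a sensor that is itself a HIF target, was at 191, 9.32 and 48.3 CPM in the older tumors and 185, 86.8 and 87.9 CPM in the younger tumors. It varied most among the older tumors, with tumor 102 the highest of the 6 and tumor 107 the lowest, and its log2 fold change was -0.54 (standard error 0.89). This value was -2.05 without tumor 102, -0.0071 without tumor 107, -0.27 without tumor 116 and -0.089 without tumor 157.

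Within the age groups the roles ordered the tumors differently. Among the older tumors, tumor 102 was the highest for 10 of the 14 other HIF targets and tumor 107 the lowest for 12 of 14, while over all genes compared these shares were 37.9% and 30.1%. For glycolytic enzymes tumor 102 was the highest of the older tumors in 4 of 16 and the lowest in 8. For transporters and flux regulators it was the highest in 5 of 6. Among the younger tumors, tumor 167 was the lowest for 13 of the 16 glycolytic enzymes (36.2% of all genes) and for 4 of the 14 other HIF targets. Across all 6, tumor 107 was the lowest for 11 of the 14 other HIF targets (13.3% of all genes). Without tumor 102 the age groups did not overlap in 28 of the 40 genes, against 16 with it, and the share over all genes rose from 12.1% to 18.7%.

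Apart from the prior count of 2, ratios of related genes within a tumor do not depend on library scaling. Their absolute level also reflects transcript length, so only differences between tumors are read. The log2 ratio of Slc16a3 to Slc16a1 was -3.15, -2.72 and -3.14 in the older tumors and -0.29, -0.33 and -0.57 in the younger tumors. The groups were narrow and far apart, with means of -3.00 ± 0.24 and -0.40 ± 0.15 (SD, n = 3 each). The log2 ratio of Ldha to Ldhb was 2.95, 2.12 and 3.17 in the older tumors and 4.51, 3.22 and 4.78 in the younger tumors, so that older tumor 116 and younger tumor 158 nearly met. The log2 ratio of Pdk1 to Ldha was -1.31, -2.41 and -2.58 in the older tumors and -3.24, -3.11 and -2.81 in the younger tumors, higher in every older tumor. The log2 ratio of Hk2 to Hk1 was -1.34 in both older tumor 102 and younger tumor 157. There the groups met, and the prior count decides which of these tumors is lower. The ratios of Bnip3 to Bnip3l and of Hif1a to Epas1 overlapped between the groups, and tumor 102 was at the younger level for the mitophagy pair. These pairs were picked with the values of their genes known.

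**Figure D5:**
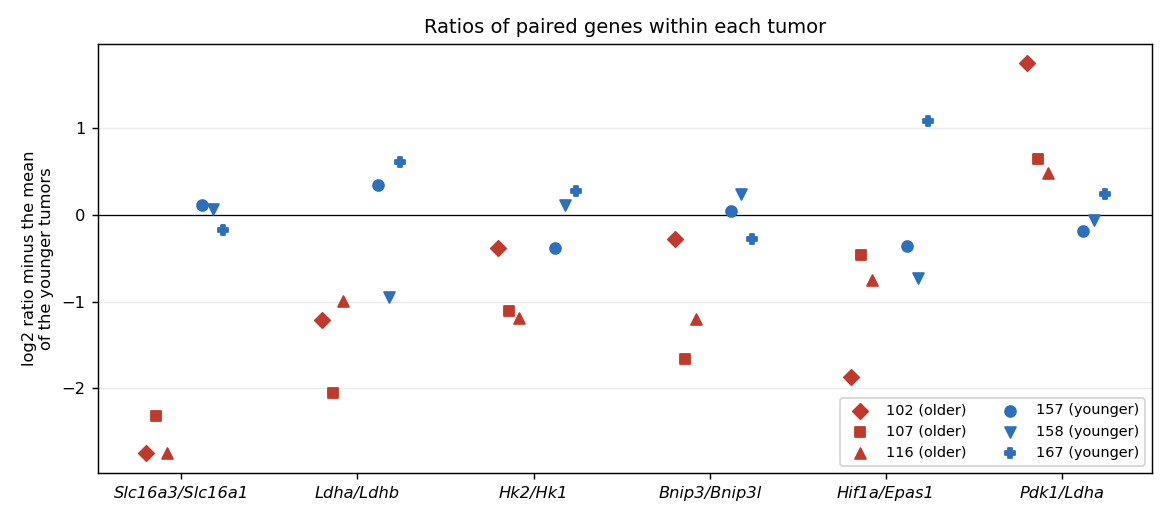
Log2 ratio of paired genes in each tumor, set to 0 at the mean of the younger tumors, with red for older and blue for younger tumors. The older mean minus the younger mean is -2.60 for Slc16a3 to Slc16a1, with the tumors of each group close together. The older tumors overlap the younger ones for Bnip3 to Bnip3l and Hif1a to Epas1. For Hk2 to Hk1 older tumor 102 and younger tumor 157 coincide.

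Further genes of the same pathways were taken from lists of 84 symbols outside the 41. Of these, 75 were compared. At an adjusted p of 0.05 edgeR called 0 of them and DESeq2 called 7 (2.28% of all genes). In every older tumor 13 were lower and 4 higher (5.58% and 6.51% of all genes). Among 24 further HIF targets the median log2 fold change was -0.32 and 17 were below 0 (50.4% of all genes). Stc2, a secreted glycoprotein, was at 5.16, 2.50 and 13.4 CPM in the older tumors and 66.7, 18.4 and 44.2 CPM in the younger tumors, with the groups apart. Hmox1, which degrades heme, was at 137, 16.4 and 29.4 CPM in the older tumors and 571, 333 and 47.9 CPM in the younger tumors, and Angptl4, a lipase inhibitor, was at 347, 10.9 and 63.7 CPM in the older tumors and 22.1, 67.3 and 3.70 CPM in the younger tumors, with tumor 102 highest. In 12 further glycolysis genes the median was 0.11, and 8 of them were above 0. Hk3, a hexokinase of myeloid cells, was at 10.3, 23.2 and 5.81 CPM in the older tumors and 2.12, 3.799 and 0.494 CPM in the younger tumors, higher in every older tumor, and Pgm1, which links glycogen to glycolysis, was at 24.4, 21.6 and 20.4 CPM in the older tumors and 60.3, 49.2 and 32.8 CPM in the younger tumors, lower in every older tumor.

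For entry of pyruvate into mitochondria the median log2 fold change over 11 genes was 0.31. Pdk2, a kinase of pyruvate dehydrogenase, was at 193, 79.5 and 79.3 CPM in the older tumors and 46.3, 56.5 and 35.3 CPM in the younger tumors, higher in every older tumor. Its relative Pdk4 overlapped between the groups. Pdk4 was at 1213, 20.7 and 72.9 CPM in the older tumors and 15.7, 371 and 12.6 CPM in the younger tumors. The pentose phosphate pathway, which makes NADPH and ribose, had a median of -0.49 over 6 genes. Of these, 3 were lower in every older tumor (5.58% of all genes). Over 7 glycogen genes the median was -0.18, and glycogen synthase (Gys1) was at 47.5, 53.6 and 38.2 CPM in the older tumors and 166, 102 and 79.2 CPM in the younger tumors, lower in every older tumor with a log2 fold change of -1.32 (standard error 0.32). Over 7 further genes of lactate and bicarbonate handling it was -0.39, and basigin (Bsg), the chaperone of the lactate carriers, was at 37.9, 88.9 and 114.5 CPM in the older tumors and 146, 115.2 and 194 CPM in the younger tumors, lower in every older tumor by a narrow margin. Among 8 further HIF subunits and regulators the median log2 fold change was 0.05, and Arnt, the partner of both alpha subunits, was at 148, 94.1 and 65.1 CPM in the older tumors and 74.6, 87.7 and 76.0 CPM in the younger tumors.

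Markers of the cells in the tissue also differed. The summed level of 4 epithelial markers (Epcam, Krt8, Krt18 and Cdh1) was 1138 to 1229 CPM in older and 1479 to 1731 CPM in younger tumors. In this sum each older tumor was below each younger one. Taken singly, this held for Epcam and Krt8, while Krt18 and Cdh1 overlapped. Krt19 was not used here. Summed macrophage markers (5 of 5 with counts) were at 124 to 275 CPM in older and 59.0 to 109 CPM in younger tumors. Taken singly, 3 of these 5 were higher in every older tumor. Adipocyte markers (5 of 5) were at 20.0 to 176 and 6.17 to 18.0 CPM. Of the adipocyte sum, Fabp4 made up 135 CPM in tumor 102 and Lep was the largest part in tumor 107, and none of the 3 adipocyte markers with enough counts to be compared was higher in every older tumor. T cell markers (4 of 4) were at 5.85 to 13.2 and 2.17 to 4.07 CPM, and only 1 of them had enough counts to be compared. B and plasma cell markers (2 of 4, without Ms4a1 and Cd79b) were at 4.55 to 21.8 and 1.73 to 4.16 CPM. In the latter sum Jchain was at 3.86 to 21.0 CPM in older and 0.494 to 3.08 CPM in younger tumors, whereas Cd79a was at 0 to 0.801 and 1.09 to 1.24 CPM. Their part in the differences of the hypoxia and glycolysis genes was not tested.

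Skeletal muscle, itself rich in glycolytic enzymes, left 6.01 to 54.3 CPM in older and 16.5 to 25.5 CPM in younger tumors over 4 of 5 markers, with creatine kinase (Ckm) below 1 CPM in every tumor. Endothelial markers (5 of 5) spanned 68.7 to 305 and 55.5 to 209 CPM, fibroblast markers (5 of 5) 103 to 983 and 100.5 to 802 CPM, myoepithelial markers (4 of 5) 417 to 2435 and 1704 to 2488 CPM, red cell markers (3 of 4) 86.4 to 183 and 176 to 336 CPM and neutrophil markers (4 of 4) 1.03 to 3.40 and 0.741 to 8.50 CPM. All of these overlapped between the groups. Tumor 102 stood apart by its immediate early genes (5 of 5), at 2703 CPM against 588 to 1081 CPM in the other tumors, and by its proliferation markers (5 of 5), at 127 CPM against 632 to 1017 CPM. It also had the highest adipocyte, fibroblast, endothelial and macrophage sums of all tumors, and the lowest epithelial and myoepithelial sums. Whether any of these moved its HIF targets was not tested.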

How the data were processed

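Bulk RNA-seq libraries of 6 rat mammary tumors were used, as the read counts per gene that the authors deposited, without normalization. The authors extracted total RNA from frozen tissue, depleted ribosomal RNA (the labels say polyA RNA), sequenced paired reads of 150 bases (100 per the labels), trimmed and aligned them with Trimmomatic and STAR, marked duplicates with Picard and counted with HTSeq 0.13.5. The submitters' processing notes name the build mRatBN7.2. The strand setting and the treatment of marked duplicates are not given in the sources used here. Spike-ins were not used here.

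Tumors were grouped by the age class in their titles, and 0 columns were left unused. Rows without a gene name (4367, holding 2.17% to 3.64% of the counts) were left out. Genes passing edgeR's filterByExpr (13139 of 26195) were scaled by TMM and fitted with edgeR 4.0.16 (R 4.3.3), whose quasi-likelihood test compared older with younger tumors with Benjamini-Hochberg adjustment at 0.05. DESeq2 1.42.0 was an alternative. Standard errors were calculated back from the F statistic, and log2 CPM used a prior count of 2. The fit was also run on simulated counts with known changes to check the code. How many real changes it can recover with 3 tumors per group is not reported here. The labels do not name the rat of each tumor, while the study describes these tumors as coming from 3 older and 3 younger rats. Levels given for 3 counts cover counting error only. Shares of isoenzymes per length were not run, since no transcript lengths were used here, and ratios stand in their place. The 41 genes and the other lists were chosen with earlier results of these data known. All 41 could be named, and from each further list the 3 genes with the largest absolute log2 fold change. Promoters came from RefSeq (GRCr8).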

Additional observations from a re-analysis of the deposited data

How the results depend on the processing

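No paired analysis was possible, since the older and the younger tumors came from different rats. With edgeR, 0 genes and 0 of the 40 hypoxia and glycolysis genes were called in the fit as reported, which gave 1128 and 18 at an unadjusted p under 0.05. The counts at the adjusted threshold were also 0 with library totals, with size factors of DESeq2, with other filters on low counts, rows without a name kept, and in the 6 fits that left out a tumor (0 to 0). DESeq2's Wald test called 343 genes, 11 of them among the 40, and the cause was not tested. Groups did not overlap in 16 of the 40, and in 17 to 28 with a tumor left out, the 28 without tumor 102 (settings chosen after seeing the data). Over all genes the share was 12.1%, and 17.8% to 27.0% with a tumor left out (18.7% without 102). Smaller groups overlap less often by construction.

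The mean difference of glycolytic enzymes ranged from -1.10 to -0.72 with a tumor left out, that of transporters and flux regulators from -0.74 to -0.12, that of HIF subunits and sensors from -1.02 to -0.42 and that of other HIF targets from -1.58 to -0.85. With all tumors it was -0.35 for transporters and flux regulators and -0.64 for HIF subunits and sensors, and in both roles the groups overlapped. Taking the median level over genes in each tumor, in place of the mean, gave -0.07 for transporters and flux regulators. It moved the other HIF targets to -1.84. That value differs from the median of the log2 fold changes of the other HIF targets, -1.01, since it follows the gene with the middle level. The median also moved the gap between other HIF targets and enzymes to -1.08, the cause of which was not tested. That gap ranged from -0.71 to 0.012 with a tumor left out, reversed at 0.012 without tumor 107, and was 0.034 without Car9 and Car12 (chosen after seeing the data).

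The sign of single genes was followed with DESeq2's size factors, with library totals, with DESeq2's test and with each tumor left out. It was not followed with other filters on low counts or with rows without a name kept. Of the 40 genes, 29 kept their sign in every setting that was followed. Aldoc turned to 0.011 with library totals, and the other changes of sign came with a tumor left out. Ranges over these fits were -0.83 to 0.12 for Hk1 (above 0 without 157), -1.36 to 0.24 for Aldoa (without 107 or 116), -0.47 to 1.22 for Aldoc (without 116 or 158), -1.29 to 0.095 for Eno2 (without 107, 116 or 157) and -0.76 to 0.55 for Ldhb (without 158). They were -1.21 to 0.69 for Pfkfb3 and -1.93 to 1.78 for Lox (both below 0 without 102), -0.43 to 0.023 for Pfkfb4 (above 0 without 116), -0.72 to 0.53 for Epas1 (above 0 without 158), and -0.61 to 0.17 for Kdm3a and -0.41 to 0.16 for Mxi1 (both above 0 without 107, 116 or 167). With a tumor left out, 22 of the 40 log2 fold changes moved by over 1.5 times or changed sign, and 18 did not.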
